A study of Sus scrofa with 24 samples.

Results

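The genes described here encode the proteins of the mitochondrial ribosome and of the machinery that carries proteins into mitochondria. They were taken by symbol, as probe sets with exactly 1 gene symbol that starts with MRPL, MRPS, TOMM or TIMM, with TIMMDC1 left out and with the probe set of highest mean signal kept for each gene. This gave 76 genes of the 6765 that had a probe set with 1 symbol, of which 58 had a mitochondrial ribosomal protein symbol (MRPL or MRPS) and 18 an import symbol (TOMM or TIMM). All 76 passed the filter on low signal, as did 5345 genes in all.

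RNA came from longissimus dorsi, the main loin muscle, of 24 crossbred pigs (Landrace × Large White × Duroc) and was hybridised to 1 array per pig. The feed held 3.0% of a fat, which was beef tallow, coconut oil, soybean oil or olive oil, with 6 pigs per fat, of which 3 were gilts (young females) and 3 barrows (castrated males). The pigs weighed about 71 kg at about 130 days of age when they were allotted to 24 pens, 3 to a pen. Which pen a sampled pig came from is not stated in the labels, and every pig was taken as independent. No group without added fat or of intact males was measured. Gilts are numbered 1 to 12 and barrows 13 to 24, as in the sample titles.

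Mitochondria keep a small genome of their own, and its messages are translated inside the organelle on a ribosome whose proteins are all encoded in the nucleus, made in the cytosol and imported. The products are core subunits of the respiratory chain and of ATP synthase, which supply ATP to working muscle. Precursor proteins pass the outer membrane through the TOM complex; those with a presequence then enter the matrix through TIM23, carrier proteins reach the inner membrane through TIM22, and small TIM proteins escort hydrophobic precursors across the space between the membranes.

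Of the 58 ribosomal symbols, 37 belong to the large subunit, 21 of them of a bacterial type and 16 mitochondria specific. MRPS30 is counted there, since its protein sits in the large subunit in spite of its name. The small subunit holds 20, of which 13 are of a bacterial type and 7 mitochondria specific. MRPS36 is counted apart, because its protein is known as a subunit of oxoglutarate dehydrogenase, an enzyme of the citric acid cycle. The import genes comprise 6 of the TOM complex (TOMM5, TOMM7, TOMM20, TOMM22, TOMM40L and TOMM70), TOMM34, a cytosolic cochaperone, 4 of TIM23 (TIMM17B, TIMM21, TIMM44 and TIMM50), TIMM22, and 6 small TIM genes (TIMM8A, TIMM8B, TIMM9, TIMM10, TIMM10B and TIMM13). MRPL12, MRPS18A, TOMM40, TIMM23 and TIMM17A were not analysed here.

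Array medians lay between 138 and 174 signal units, and the mean correlation of an array with the others between 0.907 and 0.951, lowest for pigs 12, 11 and 16. All 10 skeletal muscle markers with a probe set passed the signal filter and none was at 0; their summed signal overlapped between the sexes and among the fats. In whole muscle, fewer cells of a type and less RNA per cell cannot be told apart. Values below are array signals in linear units or differences of log2(signal + 1) with their SE, and a gene was called where its Benjamini-Hochberg adjusted p over all 14399 tested probe sets was under 0.05.

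The members with the highest mean signals over the 24 pigs were TIMM8B at 9388 ± 1603, TOMM7 at 6322 ± 1025 and TOMM20 at 3836 ± 613 (SD, n = 24). Those with the lowest were TOMM34 at 156 ± 36.4, MRPS7 at 213 ± 42.4 and MRPS23 at 218 ± 63.3 (SD, n = 24). Signals of different probe sets do not rank their transcripts, since each probe set has its own response. After removal of group means, the SD of a member between pigs had a median of 0.22 on the log2 scale and ran from 0.11 in TIMM13 to 0.48 in MRPL24, against a median of 0.32 over all tested probe sets.

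Calls were made between the sexes and not between the fats. In barrows against gilts, averaged over the fats, 2 of the 76 members were called, MRPL18 and TOMM7, and both were higher in barrows. Of all tested probe sets, 4.77% were called in the same comparison. At an unadjusted p under 0.05 there were 20 members, or 26.3%, against 21.1% of all probe sets, and 17 of the 20 were higher in barrows. The difference was above 0 in 52 of 76 members, against 47.0% of all probe sets, and its median was 0.07 against -0.02.

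MRPL18 encodes a large-subunit protein of bacterial type that lies in the central protuberance of the ribosome. Its signal in gilts ran from 459 to 765 with a median of 664, and in barrows from 687 to 949 with a median of 781. All 12 barrows lay above the mean of the gilts, although the groups overlapped. The difference was 0.29 ± 0.08, a 1.22-fold higher level in barrows (limma adjusted p = 0.0450, n = 12 per sex). A second MRPL18 probe set gave 0.75 in the same direction (limma adjusted p = 0.0251), and over the 24 pigs it correlated with the first at r = 0.55.

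TOMM7 encodes a small subunit that steadies the outer-membrane pore. Its signal in gilts ran from 4759 to 6928 with a median of 5832, and in barrows from 5882 to 8632 with a median of 6597. Here too every barrow exceeded the gilt mean, and the ranges overlapped. The difference was 0.27 ± 0.08, or 1.21-fold (limma adjusted p = 0.0487). Within fats the difference was 0.45 with soybean oil, 0.24 with olive oil, 0.22 with beef tallow and 0.17 with coconut oil.

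Both calls lay close to the threshold. When 1 pig at a time was left out, MRPL18 stayed called only without pig 7, 9, 19, 20 or 24, with adjusted p from 0.0262 to 0.0874 over the 24 runs, and TOMM7 only without pig 5, 7, 9 or 19, with 0.0212 to 0.0981. Over these runs the difference itself stayed between 0.25 and 0.31 in MRPL18 and between 0.25 and 0.3 in TOMM7. Without any signal filter no member was called, and without pigs 11, 12 and 16 the only call was MRPS36. Shares of all probe sets called in these runs are not given here, so the lost calls do not set these genes apart from the rest of the array.

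**Figure D1:**
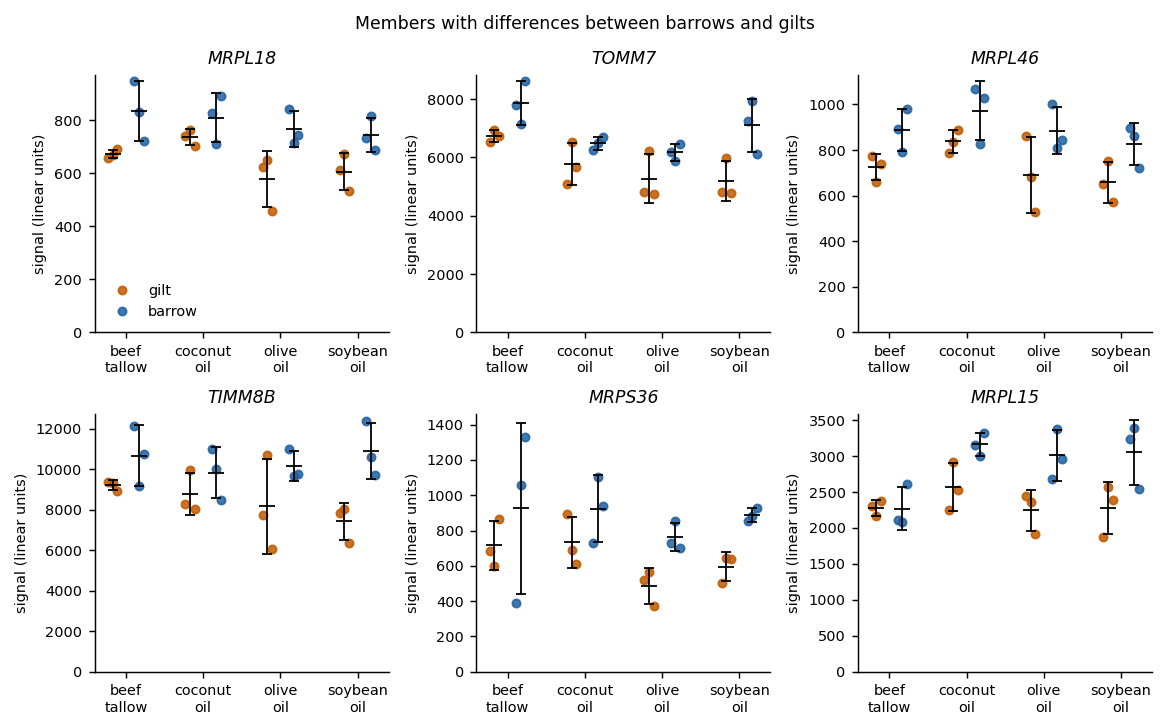
Array signal (linear units, vertical axis from 0) of 6 members by fat and sex; each point is a pig, bars give the mean ± SD of 3 pigs. Barrows had the higher mean with every fat in MRPL18, TOMM7, MRPL46, TIMM8B and MRPS36, and with every fat except beef tallow in MRPL15.

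A further group of members sat just outside the threshold in this comparison. MRPL46, a mitochondria-specific large-subunit protein, gave 0.30 ± 0.09 and TIMM8B, a small TIM chaperone, 0.32 ± 0.09, each with an adjusted p of 0.0563 in limma. MRPL15, of the large subunit, gave 0.29 ± 0.08 (limma adjusted p = 0.0573), and MRPS14, of the small subunit, 0.25 ± 0.08 (limma adjusted p = 0.0698). On the log2 scale all 12 barrows lay above the gilt mean in MRPL46, TIMM8B and MRPS14, and 10 did in MRPL15. On the linear scale the lowest MRPL46 barrow, at 723, lay under the gilt mean of 728. MRPL46 signals ran from 529 to 890 in gilts (median 743) and from 723 to 1067 in barrows (median 876). TIMM8B signals ran from 6039 to 10684 in gilts (median 8164) and from 8469 to 12409 in barrows (median 10314). The ranges overlapped in both genes.

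MRPS36, the oxoglutarate dehydrogenase subunit, had the largest difference of the 76, at 0.45 ± 0.16 (limma adjusted p = 0.101). Its signals ran from 373 to 894 in gilts and from 390 to 1329 in barrows, and the lowest barrow, in the beef tallow group, lay near the lowest gilt. At the other end, TOMM34 gave -0.33 ± 0.13 (limma adjusted p = 0.153), TIMM22 -0.23 ± 0.13 (0.321) and MRPL10 -0.21 ± 0.13 (0.376). TOMM34 signals ran from 108 to 218 in gilts and from 90.9 to 185 in barrows. None of these 4 was called. No member had barrows and gilts without overlap, as 0.125% of all probe sets did.

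The roles did not share a direction. In the mitochondria-specific proteins of the large subunit 13 of 16 differences were above 0, with a median of 0.17, and MRPL39 was the lowest of them at -0.19. In the large-subunit proteins of bacterial type 14 of 21 were above 0 with a median of 0.06, from -0.21 in MRPL10 to 0.29 in MRPL18. The small subunit had a median of 0.01 in its 13 bacterial-type proteins and 0.08 in its 7 mitochondria-specific ones. All 6 small TIM genes were above 0, from 0.02 in TIMM13 to 0.32 in TIMM8B, while 3 of the 4 TIM23 genes were below 0, among them TIMM50, the TIM23 receptor, at -0.07 ± 0.12 and TIMM44, which anchors the import motor, at -0.04 ± 0.14. The outer-membrane receptors gave -0.08 ± 0.10 in TOMM20, 0.12 ± 0.08 in TOMM22 and 0.14 ± 0.09 in TOMM70. MRPS30 stood at 0.27 ± 0.11 (limma adjusted p = 0.164), TIMM8A at 0.17 ± 0.11 and TIMM10 at 0.06 ± 0.11. Differences between roles were not tested.

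**Figure D2:**
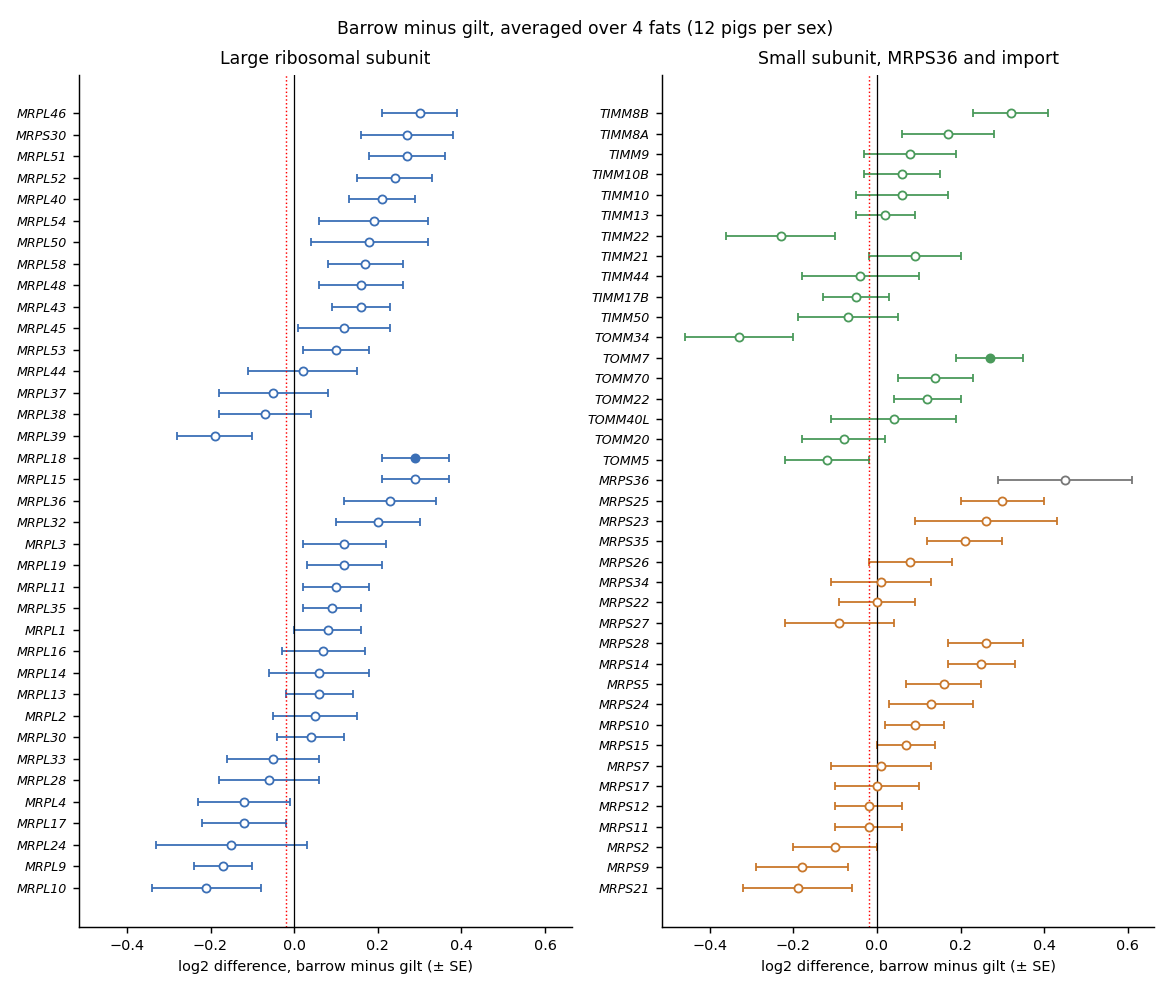
Log2 difference, barrow minus gilt, of all 76 members with its SE, grouped by role and ordered by size within a role; filled points mark adjusted p under 0.05, the dotted line the median of all tested probe sets (-0.02). Only MRPL18 and TOMM7 are filled, and 52 of the 76 points lie above 0.

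Within each fat, the median member difference between barrows and gilts was 0.17 with olive oil, 0.14 with soybean oil, 0.02 with coconut oil and 0.01 with beef tallow (3 pigs per sex in each). The medians of all probe sets were -0.03, -0.03, -0.03 and 0.04. The difference was above 0 in 59, 55, 40 and 39 of the 76 members in the same order. The shares of all probe sets above 0 were 47.2%, 45.8%, 45.4% and 55.6%. Without pig 12, a gilt fed olive oil, the olive oil median was 0.07 with 51 members above 0. With all 4 fats, 21 members were above 0, among them MRPL18, MRPL46, MRPS14, MRPS25, MRPS28, MRPS36, TIMM8B and TOMM7, and 5 were not above 0 in any (MRPL4, MRPL9, MRPS2, MRPS21 and TIMM22). No share of all probe sets is given beside these counts. The interaction of fat and sex was called in no member, as in 0.0% of all probe sets. At an unadjusted p under 0.05 limma gave 1 member for it, MRPL36, against 6.22% of all probe sets. In MRPL36, a small large-subunit protein, the barrows fed olive oil stood at 787, 840 and 735 and the gilts fed olive oil at 666, 489 and 361. With beef tallow its order was the other way, at 568, 394 and 436 in barrows and 494, 667 and 503 in gilts (limma adjusted p of the interaction = 0.778).

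The next smallest interaction p values were in MRPS12, TOMM20, MRPL32 and MRPL45, with limma adjusted p from 0.778 to 0.786.

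Genes that work with these proteins gave few calls between the sexes. Among 4 tested proteins of the mitochondrial ribosome with other names, CHCHD1, a small-subunit protein, was higher in barrows by 0.44 ± 0.10 (limma adjusted p = 0.0163), and it was the only call of that list. Of 5 tested regulators of mitochondrial biogenesis, the transcription factor MYC was called, at 0.42 ± 0.12 (limma adjusted p = 0.0455), while the coactivator PPARGC1A stood at 0.11 ± 0.31. None was called among 8 translation factors, where the elongation factor TUFM gave 0.01 ± 0.14, nor among 9 mitochondrial tRNA synthetases, 13 ribosome assembly factors and 8 genes of mitochondrial DNA expression, where TFAM, which packages that DNA, gave 0.11 ± 0.08. None was called among 14 other import genes, where the matrix chaperone HSPA9 gave -0.05 ± 0.09, or among 8 matrix chaperones and proteases. At an unadjusted p under 0.05 limma gave 2, 1, 0, 1, 1 and 1 genes in those 6 lists, in the order given. The 43 oxidative phosphorylation genes had a median of 0.00 with 0 called and 3 at an unadjusted p under 0.05 in limma, and the 55 cytosolic ribosomal protein genes a median of 0.01 with 0 called and 2.

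Of 7 adipocyte markers, with a median difference of -0.51 between barrows and gilts, GPD1 was called at 0.65 and LIPE, in the opposite direction, at -1.26. The 8 endothelial markers had a median of -0.18 with 7 below 0, none called and 3 at an unadjusted p under 0.05 in limma. The 7 slow fibre markers had a median of -0.15 with all 7 below 0, none called and 0 at an unadjusted p under 0.05 in limma. The 6 fast fibre markers had a median of 0.15 with 4 above 0, none called and 2 at an unadjusted p under 0.05 in limma. Summed adipocyte marker signal ran from 14531 to 47444 in gilts and from 15565 to 37223 in barrows; summed endothelial signal ran from 6946 to 12893 in gilts and from 6196 to 10218 in barrows, and no marker of either list was at 0. Their part in the member differences was not tested.

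Among the fats, no member was called in any of the 6 pairs. The moderated F test over the 4 fats also called none, as it did for 0.0% of all probe sets; at an unadjusted p under 0.05 limma gave 1 member, TOMM7, against 11.6%. The smallest p values of that test were in TOMM7 (limma adjusted p = 0.358), TIMM22 and MRPS22 (0.438 each), TOMM40L (0.443) and MRPS12 (0.470). The 6 pairs share groups of pigs, so their values are not independent of each other.

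In coconut oil against beef tallow, 0 members were called against 1.12% of all probe sets, and 4 members, or 5.26%, had an unadjusted p under 0.05 in limma against 19.8%. The difference was above 0 in 51 of 76 members against 44.6% of all probe sets, with a median of 0.07 against -0.04. TOMM40L, a relative of the outer-membrane pore protein, had the largest, 0.57 ± 0.21 (limma adjusted p = 0.140). Its signals with beef tallow were 450, 495 and 551 in gilts and 583, 302 and 671 in barrows. With coconut oil they were 889, 589 and 711 in gilts and 649, 797 and 804 in barrows. All 6 pigs fed coconut oil lay above the beef tallow mean, with some overlap between the groups.

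MRPL15 gave 0.32 ± 0.12 (limma adjusted p = 0.140), from a median of 2235 (range 2082 to 2611) with beef tallow to 2964 (2249 to 3323) with coconut oil. MRPS12, a protein of the decoding centre of the small subunit, gave 0.27 with a limma adjusted p of 0.210. TOMM7 ran the other way at -0.25 ± 0.11 (limma adjusted p = 0.210), as did MRPL33 at -0.26 ± 0.15 (0.347) and MRPL50 at -0.21 ± 0.20 (0.607). Further probe sets gave -0.16 and 0.28 in MRPS12 and 0.07 in MRPL33. The MRPS12 probe set at -0.16 correlated at r = 0.03 with the one kept for that gene. MRPL24 gave 0.37 ± 0.26 (limma adjusted p = 0.443), and 0.12 without pig 10. None of these was called.

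The groups did not overlap in 2 of the 76 members, MRPL3 and TOMM70, against 1.78% of all probe sets, a share close to that of the members. In MRPL3, a core protein of the large subunit, pigs fed beef tallow stood at 1634, 1438 and 1740 (gilts) and 1525, 1641 and 1658 (barrows). With coconut oil the signals were 2042, 1755 and 1985 (gilts) and 2016, 1963 and 1851 (barrows). In TOMM70, the receptor for carrier precursors, pigs fed beef tallow stood at 739, 830 and 744 (gilts) and 783, 820 and 687 (barrows). With coconut oil they stood at 920, 834 and 833 (gilts) and 948, 996 and 960 (barrows). The gap between the groups in TOMM70 was thus a few units, and the difference was 0.25 ± 0.13 (limma adjusted p = 0.279).

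By sex, coconut oil minus beef tallow gave 0 called members in gilts (0.0% of all probe sets) and 0 in barrows (2.07%). At an unadjusted p under 0.05 limma gave 0 members in gilts against 4.7% of all probe sets and 4 in barrows against 21.2%. The difference was above 0 in 46 members in gilts against 49.3% of all probe sets, and in 48 in barrows against 43.0%. The 4 members in barrows were MRPL15 at 0.49 ± 0.17, MRPL38 at 0.54 ± 0.21, MRPS12 at 0.42 ± 0.17 and MRPL32 at 0.42 ± 0.19, with limma adjusted p from 0.114 to 0.218. The difference between the sexes was called in no member and in 0.0% of all probe sets; at an unadjusted p under 0.05 limma gave MRPL32 alone, against 5.53%, and 42 members were above 0 against 43.1%. In MRPL32 the 3 barrows fed coconut oil stood at 523, 625 and 676 and those fed beef tallow at 389, 447 and 531, while the gilts stood at 493, 529 and 344 and at 504, 493 and 526. A further MRPL32 probe set correlated with the one kept at r = 0.06, and its values by sex are not given here.

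Genes around the members gave no call in this pair apart from markers of other cell types. PPARGC1A gave 1.55 ± 0.44 (limma adjusted p = 0.0708), HSPA9 0.26 ± 0.12 (0.234), TUFM 0.20 ± 0.20 (0.615) and TFAM 0.04 ± 0.11 (0.883). The medians were 0.09 over 43 oxidative phosphorylation genes, 0.16 over 14 other import genes and -0.11 over 55 cytosolic ribosomal protein genes, with 0 called in each and 1, 2 and 2 genes at an unadjusted p under 0.05 in limma. Of 9 fibroblast and matrix markers, 6 were called lower with coconut oil (median -0.71), and of 7 adipocyte markers FABP4 was called lower (median -1.09). Summed fibroblast marker signal ran from 39928 to 96039 with beef tallow and from 30798 to 41367 with coconut oil, and none of these markers was at 0. Their part in the member differences was not tested.

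Against the same beef tallow pigs, olive oil gave 0 called members (0.0% of all probe sets), 5 members at an unadjusted p under 0.05 in limma against 6.44%, and 48 differences below 0 against 58.2%. TOMM7 gave -0.35 ± 0.11 (limma adjusted p = 0.554) and its groups did not overlap, as in 0.16% of all probe sets and in no other member. Its signals with beef tallow were 6519, 6928 and 6738 in gilts and 7808, 7129 and 8632 in barrows. With olive oil they were 4828, 6230 and 4759 in gilts and 6175, 5882 and 6472 in barrows, so that the highest pig fed olive oil stood just under the lowest fed beef tallow. TIMM22, the channel of the carrier translocase, gave -0.48 ± 0.18 and MRPS22, of the small subunit, -0.35 ± 0.13, each with a limma adjusted p of 0.701. MRPL24, MRPL36 and MRPL38 had the largest positive values at 0.33 ± 0.26, 0.30 ± 0.15 and 0.23 ± 0.15. In MRPL24 the beef tallow mean includes pig 10, a gilt at 95, where the median of that group was 225. The MRPL24 difference without pig 10 is not given for this pair.

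In soybean oil minus beef tallow no member was called (0.0% of all probe sets), 1 had an unadjusted p under 0.05 in limma against 3.46%, and 46 were below 0 against 53.1%. That member was TOMM7, at -0.27 ± 0.11 (limma adjusted p = 1.00). Its signals with soybean oil were 4798, 5986 and 4770 in gilts and 7233, 7943 and 6131 in barrows, so the sexes lay apart within that fat. MRPL24 gave 0.41 ± 0.26, MRPL38 0.24 ± 0.15, MRPL36 0.21 ± 0.15, MRPL52 -0.21 ± 0.13 and MRPL40 -0.21 ± 0.11, each with the same adjusted p. MRPL52 turned to 0.19 when all its probe sets were averaged. The MRPL24 difference again uses the beef tallow mean that includes pig 10, at 95, and its value without that pig is not given here. The members below 0 were 56 in gilts against 45.1% of all probe sets, and 31 in barrows against 56.4%.

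In olive oil against coconut oil the difference was below 0 in 67 of 76 members against 51.0% of all probe sets, with a median of -0.11 against -0.01, although 0 members were called (0.0% of all probe sets) and 4 had an unadjusted p under 0.05 in limma against 8.85%. All 18 import genes lay below 0, from -0.01 to -0.45, as did 31 of 37 large-subunit and 17 of 20 small-subunit genes; after quantile normalization 16 of the 18 import genes did. Pig 12, a gilt fed olive oil and the array least correlated with the others, had a median deviation of -0.33 from the 24-pig means of the members, and the next lowest pig one of -0.10. Without pig 12, 55 of 76 differences were below 0 and the median was -0.07, against 50.4% of all probe sets, and the counts were 14 of 18 import, 26 of 37 large-subunit and 14 of 20 small-subunit genes. Also without pig 12, soybean oil minus olive oil had a median of -0.01 in place of 0.05, and 38 of 76 members were below 0 in olive oil minus beef tallow. With all pigs, olive oil minus coconut oil was below 0 in 67 members in gilts (median -0.18) against 50.8% of all probe sets. In barrows it was below 0 in 53 (median -0.07) against 49.7%.

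TIMM22 had the largest difference there, -0.45 ± 0.18 (limma adjusted p = 0.554). Its signals with olive oil were 341, 182 and 287 in gilts and 211, 247 and 176 in barrows. With coconut oil they were 286, 387 and 347 in gilts and 306, 357 and 253 in barrows, so the groups overlapped. MRPS22 gave -0.33 ± 0.13 with a median of 505 (395 to 587) with olive oil and 616 (499 to 782) with coconut oil, TIMM13 -0.22 and MRPS12 -0.26, all with a limma adjusted p of 0.554. Further MRPS12 probe sets gave 0.05 and -0.21. MRPS36 gave -0.43 ± 0.22 and MRPL54 -0.36 ± 0.18. On the positive side stood MRPS34 at 0.17 ± 0.18, MRPS10 at 0.15 ± 0.10 and MRPL36 at 0.12 ± 0.15.

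The other mitochondrial lists varied in their signs in this pair. Of the 43 oxidative phosphorylation genes 40 were below 0 with a median of -0.16, as were 13 of 14 other import genes, 8 of 8 translation factors and 8 of 8 matrix chaperones and proteases. Below 0 were also 6 of 8 genes of mitochondrial DNA expression (median -0.07), 8 of 13 ribosome assembly factors (-0.03) and 5 of 9 mitochondrial tRNA synthetases (-0.07). None of these genes was called; limma gave 1, 0, 0, 1, 0, 2 and 0 of them at an unadjusted p under 0.05, in the order given. Skeletal muscle markers were below 0 in 10 of 10 (median -0.13), while 13 of 55 cytosolic ribosomal protein genes were. Leukocyte markers were above 0 in 8 of 8 (median 0.58) and fibroblast markers in 9 of 9 (median 0.49), with summed fibroblast signal from 34259 to 74574 with olive oil and none of these markers at 0. Their part was not tested. The counts of these lists and markers include the olive oil gilt whose array correlated least with the others. Counts without that pig are not given here. Summed skeletal muscle signal was lowest, at 230856, in a gilt fed olive oil. How far the signs of these lists rest on a single array was not tested.

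Soybean oil against coconut oil called 0 members (0.0% of all probe sets), with 6 at an unadjusted p under 0.05 in limma against 13.0%. The difference was below 0 in 59 of 76 against 46.3%, with a median of -0.07 against 0.02. By sex, 58 members were below 0 in gilts (median -0.15) against 45.9% of all probe sets, and 43 in barrows (median -0.04) against 46.3%. TOMM70 gave -0.35 ± 0.13 (limma adjusted p = 0.302), from a median of 934 (833 to 996) with coconut oil to 702 (580 to 854) with soybean oil. MRPL19, a large-subunit protein, gave -0.33 ± 0.13 (limma adjusted p = 0.312) and was the only member whose groups did not overlap, against 1.06% of all probe sets. Its signals with coconut oil were 895, 947 and 937 in gilts and 1054, 881 and 984 in barrows, and with soybean oil 671, 804 and 747 in gilts and 764, 820 and 726 in barrows. TOMM40L gave -0.50 ± 0.21 (0.335) and TIMM44 -0.36 ± 0.20 (0.445), as limma differences with adjusted p in brackets. Further TIMM44 probe sets gave -0.44 and 0.33, and the one at 0.33 correlated at r = -0.01 with the one kept. MRPS10, of the small subunit, ran the other way at 0.25 ± 0.10 (limma adjusted p = 0.325), with MRPL10 and MRPL50 at 0.10 each; MRPL50 turned to -0.12 without pig 9. MRPL46 and MRPL40 gave -0.29 and -0.24, and a further MRPL46 probe set gave -0.06.

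Soybean oil against olive oil called 0 members (0.0% of all probe sets). At an unadjusted p under 0.05 limma gave 1, TIMM22 at 0.39 ± 0.18, against 3.18%, and 52 members were above 0 against 56.5%. The TIMM22 difference was 0.23 without pig 11, a gilt fed soybean oil with a signal of 535. MRPS22 and MRPS36 each gave 0.26, and MRPS7 -0.27, TIMM44 -0.25 and TOMM70 -0.17. All 6 had a limma adjusted p of 1.00, and TIMM44 turned to 0.04 when its probe sets were averaged.

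**Figure D3:**
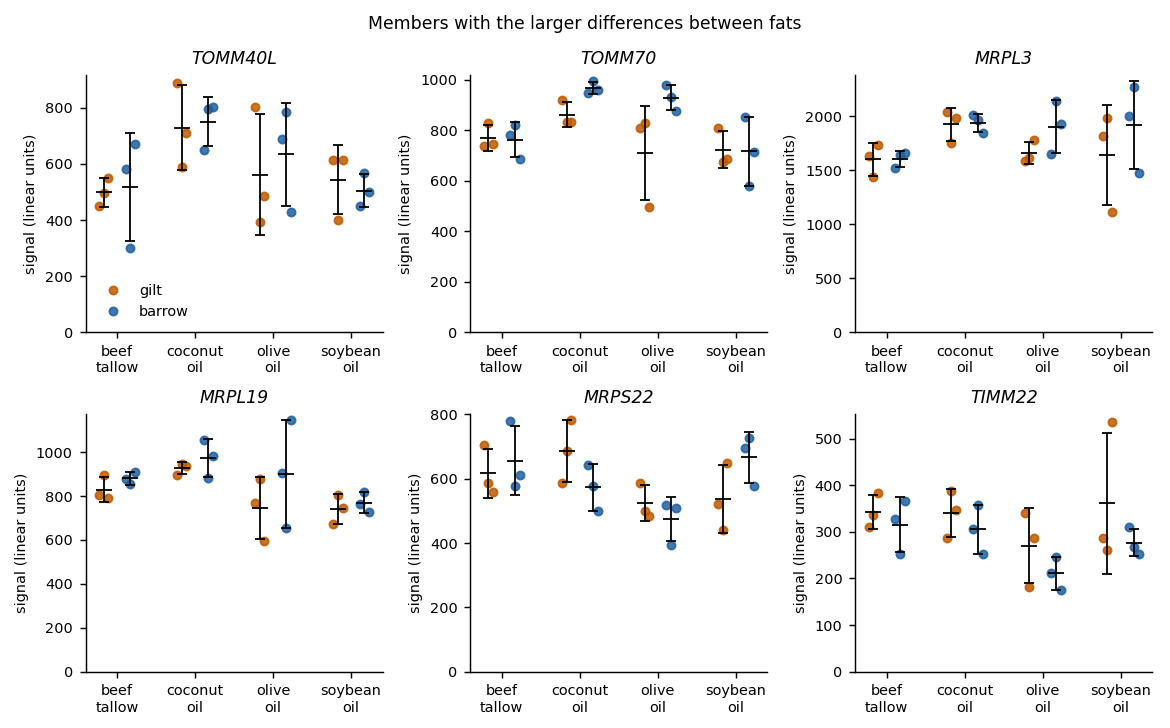
Array signal (linear units, vertical axis from 0) of 6 members by fat and sex; each point is a pig, bars give the mean ± SD of 3 pigs. TOMM40L, TOMM70 and MRPL3 have higher means with coconut oil than with beef tallow, MRPL19 is lower in all 6 pigs fed soybean oil than in all 6 fed coconut oil, and TIMM22 and MRPS22 are lowest with olive oil.

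By rank of the 4 fat means, coconut oil was highest in 44 of the 76 members, beef tallow in 20, soybean oil in 8 and olive oil in 4. Over all probe sets coconut oil was highest in 30.9%, beef tallow in 32.9%, soybean oil in 21.0% and olive oil in 15.2%. Olive oil was lowest in 37 members, beef tallow and soybean oil in 18 each and coconut oil in 3, while over all probe sets coconut oil was lowest in 35.9% and olive oil in 23.4%. Without pig 12, olive oil was lowest in 23 members, soybean oil in 24, beef tallow in 22 and coconut oil in 7, and coconut oil was highest in 39. These ranks are not tests, and no pair of fats was called in any member.

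**Figure D4:**
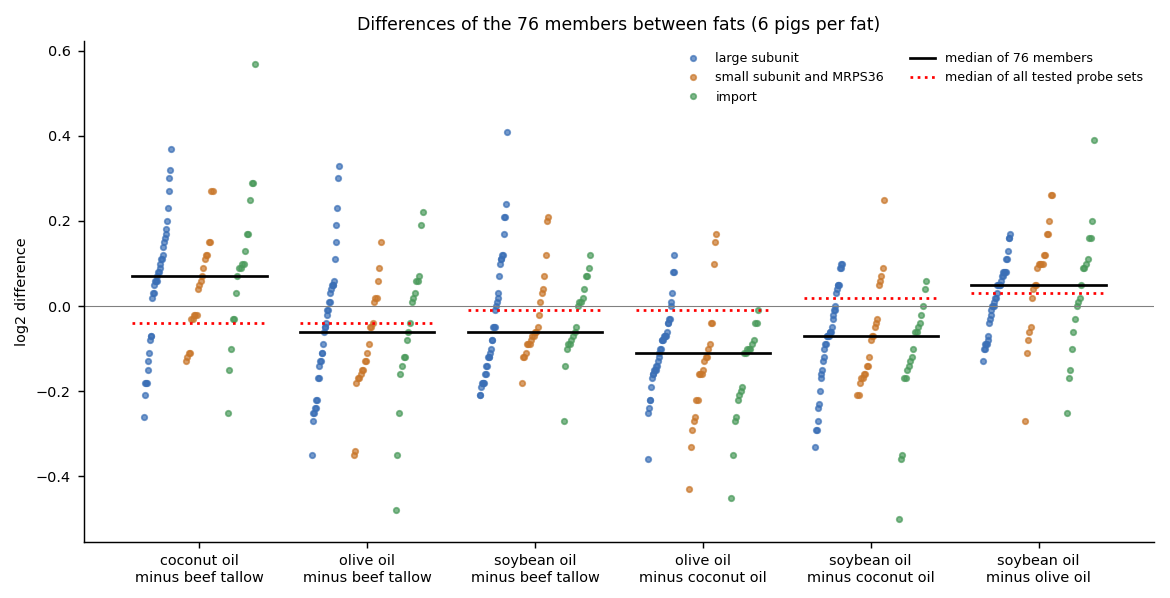
Log2 difference of each of the 76 members (points, by compartment) in the 6 pairs of fats, with the median of the members (black line) and of all tested probe sets (red dotted line). The black line lies above the dotted one for coconut oil minus beef tallow (0.07 against -0.04) and below it for olive oil minus coconut oil (-0.11 against -0.01).

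The scale of the arrays bears on these signs. Centring each array on its median moved the median of all probe sets in coconut oil minus beef tallow from -0.04 to 0.09, and that of the members from 0.07 to 0.20. The members lay 0.11 above all probe sets under both, and 0.06 above them after quantile normalization. Under centring, the members below 0 in olive oil minus beef tallow went from 48 to 34, and all probe sets from 58.2% to 39.5%. The members' median there turned from -0.06 to 0.03, and that of soybean oil minus olive oil from 0.05 to -0.01. For olive oil minus coconut oil the members below 0 were 67 after quantile normalization (53.9% of all probe sets) and 70 after centring (57.0%). For soybean oil minus coconut oil they were 58 (52.5%) and 72 (60.2%). For barrow minus gilt 53 (51.1%) and 56 (55.9%) members were above 0.

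The probe sets of the members correlated only weakly with each other from pig to pig. Further probe sets of the same gene also correlated weakly with the one kept, at a median of 0.22. A low value therefore need not mean that the transcripts vary apart. How far probe set noise lowers these values was not tested. With group means removed, the median Pearson correlation over the 2850 pairs of members was 0.16 over 24 pigs, and 0.09 without pigs 11, 12 and 16. Within the 43 oxidative phosphorylation genes it was 0.63 and within the cytosolic ribosomal protein genes 0.73, while over all tested genes it was 0.00. Between members and oxidative phosphorylation genes it was 0.28, higher than among the members themselves. Pairs within the large subunit (0.17), within the small subunit (0.17) and within the import genes (0.19) were hardly closer than pairs across the subunits (0.14). These values share the arrays and their scaling and are given as descriptions.

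Single members followed the rest to very different degrees. MRPS25 correlated at 0.85 with the median of the other members, MRPL33 at 0.82 and MRPS30 at 0.72, while MRPL10 (-0.42), MRPS23 (-0.32) and TOMM34 (-0.30) ran against it. A second probe set was present for 17 members, and of 23 such probe sets 17, for 14 genes, passed the filter. Their correlation with the main probe set of the same gene had a median of 0.22 and ran from -0.03 in MRPL3 to 0.86 in TIMM50. The sign of barrow minus gilt was shared in 13 of 17, and that of olive oil minus coconut oil in 14 of 17. In TIMM44 the main probe set gave -0.04 for barrow minus gilt and a further one -0.78 (limma adjusted p = 0.0459), and the 2 correlated at -0.01.

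**Figure D5:**
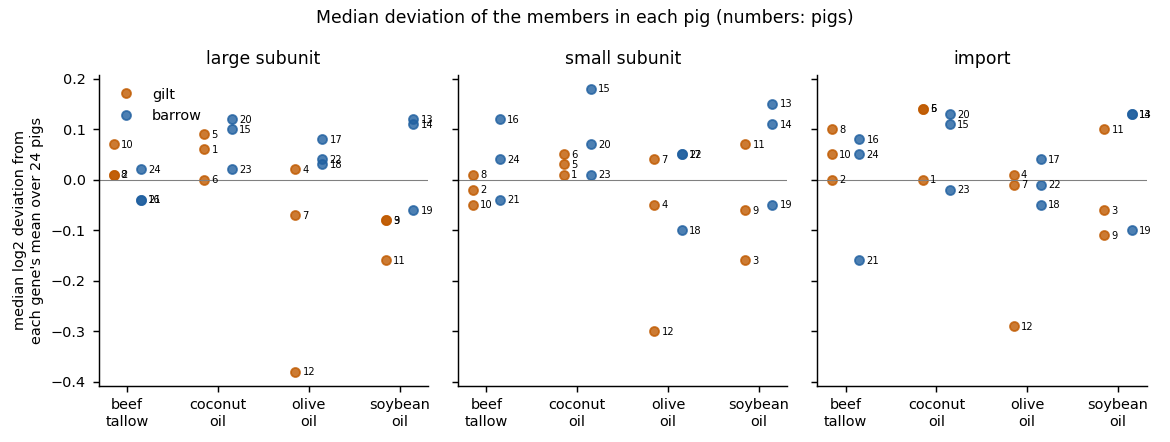
Median log2 deviation of the large-subunit, small-subunit and import genes of each pig from the gene means over 24 pigs, by fat and sex; each point is a pig, labelled by its number. Pig 12 lies lowest in all 3 panels (-0.38, -0.30 and -0.29), and all 3 gilts fed soybean oil lie below 0 in the large subunit.

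Per pig, the median deviation over all members ran from 0.01 to 0.13 with coconut oil, from -0.07 to 0.04 with beef tallow, from -0.10 to 0.13 with soybean oil and from -0.33 to 0.06 with olive oil. All 6 pigs fed coconut oil were above 0. With soybean oil the gilts stood between -0.10 and -0.06 and the barrows between -0.06 and 0.13. The sexes overlapped over the whole set, with gilts from -0.33 to 0.09 and barrows from -0.07 to 0.13.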

How the data were processed

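The deposited values are linear array intensities of 24123 probe sets, which the authors scaled to a common level: the mean after trimming 2% at each end was 500.1 to 500.2 on every array. No source names the summarisation algorithm. Symbols came from the platform annotation, and 75 of 76 gene identifiers matched RefSeq Sscrofa11.1. After removal of 124 controls, log2(signal + 1) was fitted by lmFit and eBayes (limma 3.58.1, R 4.3.3) with 8 means of fat and sex for the 14399 probe sets at or above the 40th percentile of mean signal (86.3), with Benjamini-Hochberg adjustment over all of them and two-sided tests. Precision is limited by the number of pigs. Symbol lists "MRPL22;MRPL22" and those of MRPL55 count as several symbols and were left out. Members and lists were chosen with earlier results of these data known. Named genes are called members, the 3 largest differences in each direction per comparison, the 5 smallest p of each F test, a fixed set of members and companions, and the extremes of signal; other members are named where a count of 8 or fewer, a missing overlap or a correlation singles them out, after their values were seen. The fit was tested on simulated data. Alternatives covered filter, scaling, pseudocount, model, spread, weights, probe set choice and left-out pigs.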

Additional observations from a re-analysis of the deposited data

Results flagged for a closer look

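Among 33 named members in 4 fats (132 groups of 6 pigs), 14 groups held a pig far from the other 5, and chance flags about 1 in 20 groups. Many of these members were named for large differences in the same data, and each group mixes the sexes. The count is therefore not to be read as an excess over chance. Pig 12 was low in MRPL38 with olive oil (814, others 1266 to 1509) and in TOMM70 (495, others 808 to 978). Pig 16, fed beef tallow, was low in MRPL50 (293, others 399 to 480) and high in MRPL52 (2491, others 1493 to 1717). These are 2 of the 3 arrays least correlated with the rest, and the third, pig 11, was high in TIMM22 with soybean oil (535, others 253 to 310).

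The other 9 flags fell on 9 different pigs. With coconut oil, pig 1 was high in MRPS12 (566, others 404 to 432), pig 20 high in TIMM44 (457, others 245 to 306), pig 6 low in TOMM22 (2450, others 2767 to 2943) and pig 15 low in TOMM34 (91, others 163 to 213). With soybean oil, pig 14 was high in MRPS12 (573, others 356 to 419), pig 19 low in MRPS7 (114, others 187 to 240) and pig 3 low in TIMM8A (797, others 1187 to 1440). With olive oil, pig 7 was low in MRPL54 (156, others 229 to 288) and pig 18 low in MRPS34 (348, others 474 to 564).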

How the results depend on the processing

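Calls among the fats were 0 under every alternative run, except that median centring called 1 member for coconut oil minus beef tallow in barrows. Median centring moved the members' median to 0.20 for coconut oil minus beef tallow, 0.03 for olive oil minus beef tallow, -0.16 for soybean oil minus coconut oil, 0.27 for coconut oil minus beef tallow in barrows and 0.21 for its sex difference. The 2 calls for barrow minus gilt became 0 with no filter, 6 with a 60th percentile filter, 3 with quantile normalization or median centring, 4 in an additive model, 5 with trended and robust spread, 8 with array weights, 5 with 1 probe set per gene, 1 without the 3 least correlated arrays and 0 to 6 when 1 pig was left out. All calls under these settings were higher in barrows. The shares of all probe sets called under these settings are not given here. The counts therefore do not tell the members from the rest of the array. With the mean of all probe sets of a gene, MRPL52 turned to 0.19 for soybean oil minus beef tallow and TIMM44 to 0.04 for soybean oil minus olive oil. MRPL50 for soybean oil minus coconut oil ran from -0.12 (without pig 9) to 0.23 over the left-out pigs. The cause of these changes was not tested. Of 1916 values of named differences under alternatives, 1850 kept direction and side of the threshold, 43 lost a call, 20 gained one and 3 turned. No paired analysis was possible because the groups share no replicate numbers. Pens, which could link pigs, are not known, and 3 pigs per combination of fat and sex limit what differences can be called.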
